A study of Mus musculus with 14 samples.

Results

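The genes described here encode the subunits of the mitochondrial respiratory chain and of the ATP synthase, measured as RNA in the retinal pigment epithelium (RPE) of rd1 mice at postnatal day 20. Members were taken by gene symbol: protein-coding genes whose symbol starts with Nduf (without the Ndufaf assembly factors), Uqcr, Cox4i, Cox5, Cox6, Cox7, Cox8 or Atp5, together with Sdha, Sdhb, Sdhc, Sdhd, Cyc1, Cycs and the protein-coding genes of the mitochondrial genome. The rule found 100 of 21751 protein-coding mouse genes in the table, 87 in the nuclear genome and 13 in the mitochondrial genome. Both eyes of 7 mice were compared. The control eye received AAV-Best1-GFP, an adeno-associated virus that expresses green fluorescent protein from the human Best1 promoter, which is active in RPE cells. The Nrf2 eye received AAV-Best1-GFP and, in addition, AAV-Best1-Nrf2, which expresses human Nrf2 from the same promoter. Every mouse carried the rd1 allele of Pde6b (FVB/N strain), so the rods of control eyes were degenerating too. The vectors had different capsids, and the Nrf2 eye received more vector, which cannot be told apart from the transgene in this design. Groups are called Nrf2 and control, and each library carries its group and the number of its mouse.

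The respiratory chain passes electrons from NADH through complex I and from succinate through complex II to coenzyme Q, then through complex III and cytochrome c to oxygen at complex IV. Complexes I, III and IV pump protons, and complex V, the ATP synthase, uses the resulting gradient to make ATP. All but complex II and cytochrome c are built from products of both genomes, so their assembly needs transcripts from the nucleus and from the mitochondrion. The RPE relies on oxidative phosphorylation and leaves much of its glucose to the photoreceptors. Nrf2, encoded by Nfe2l2, binds antioxidant response elements and switches on antioxidant and NADPH-producing genes. It is not to be confused with the nuclear respiratory factors NRF1 and NRF2 (GABPA), which are classical activators of nuclear genes for the respiratory chain.

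Libraries held 16548349 to 50543008 estimated counts, and the human vector transcript reached 1163 to 8711 counts per 1000000 (CPM) in Nrf2 libraries against 1.12 to 1163 CPM in control libraries. Control 3 and Nrf2 4, as labelled, had the same vector level, so the main counts are also given without mice 3 and 4. They were also close in the Nrf2 target Gclc, at 576 and 572 CPM. Markers of other cells were close too, such as Krt12 (7165 and 6704 CPM) and C1qa (47.71 and 46.25 CPM). The 16 skeletal muscle markers summed to 480 and 445 CPM in these 2 libraries, the highest sum of each group. Acta1, a muscle marker, had 100.7 and 98.5 CPM, while Myh8, another, differed more (13.95 and 4.31 CPM). Whether the 2 libraries share RNA was not tested, and counts over 7 mice include both. Nrf2 2 had the fewest counts and 2.55% of its counts on pseudogenes, against 1.06% to 1.17% in the other libraries. All 11 canonical Nrf2 targets checked were higher in Nrf2 eyes (adjusted p from 0.00936 to 0.0138, edgeR), with a median log2 fold change of 2.68. The summed level of 18 RPE markers overlapped between the groups, at 26110 to 41810 CPM in Nrf2 and 22360 to 40650 CPM in control libraries. Only 1 of the 18 was called: Rpe65, the visual cycle isomerase, was lower in Nrf2 eyes (log2 fold change -2.17, SE 0.37, adjusted p = 0.0199). Of the 18 markers, 9 had positive and 9 negative values, with a median log2 fold change of -0.03. Ttr had the highest, 1.58 (SE 0.45, adjusted p = 0.104). The 12 cone markers summed to 33.8 to 169 CPM in Nrf2 and 56.1 to 1158 CPM in control libraries. All 12 had negative values, and 2 were called lower, Opn1sw and Gnat2, beside 3.43% of all genes tested called. Control 1 and control 4 had the highest cone sums (1051 and 1158 CPM). They also had the highest sums of inner retina and Mueller glia markers (5339 and 5879 CPM). Lens and surface epithelium markers summed to 2272 to 24230 CPM in Nrf2 and 2048 to 51130 CPM in control libraries. Bulk RNA cannot tell fewer cells of a type from less RNA per cell, and the part these other cells had in the values below was not tested.

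No respiratory chain subunit passed the test. Of 98 members with enough counts to be tested, 0 were called in either direction at an adjusted p under 0.05 by edgeR's paired quasi-likelihood test, while 559 of 16289 genes tested (3.43%) were called, 479 higher (2.94%) and 80 lower (0.491%) in Nrf2 eyes. Scaling by library totals in place of TMM, edgeR's trimmed-mean factor, gave 314 higher and 198 lower genes and again 0 members. At an unadjusted p under 0.05 there were 7 members, or 7.14%, against 18.1% of all genes tested, and all 7 were nuclear genes with positive values. None of the 98 had groups that were free of overlap, which 1.6% of all genes tested had. The remaining 2 members, Cox7b2 and Cox8c, had too few counts to be tested. The 95% interval of the log2 fold change lay within -0.5 and 0.5, a 1.41-fold change either way, for 67 members and within -1 and 1 for 95. The 3 members with wider intervals were Cox4i2, Cox6a2 and Ndufa4l2, isoforms below 6 CPM in every library.

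The median log2 fold change was 0.12 over 85 nuclear members, of which 69 were positive, and 0.11 over the 13 mitochondrial genes, of which 10 were positive. Over all genes tested the median was -0.04. These signs depend on the scaling: without TMM factors the median over all genes moved to -0.17 and those of nuclear and mitochondrial members to -0.01 each, so that both sets lay above the median of all genes by nearly the same amount on either scale. The medians also depend on single mice: they ranged from 0.06 without mouse 1 to 0.18 without mouse 2 for nuclear members and from 0.04 without mouse 6 to 0.19 without mouse 7 for mitochondrial genes, and without mouse 7 the nuclear median was 0.10. Nuclear members with transcripts under 800 bases (38 genes) had a median of 0.12 and longer ones (47 genes) a median of 0.10. Among all protein-coding genes at 20 CPM or more, the median was 0.12 over 210 genes with transcripts under 800 bases and -0.01 over 7621 longer genes. The part of transcript length in the members' median was not tested.

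**Figure D1:**
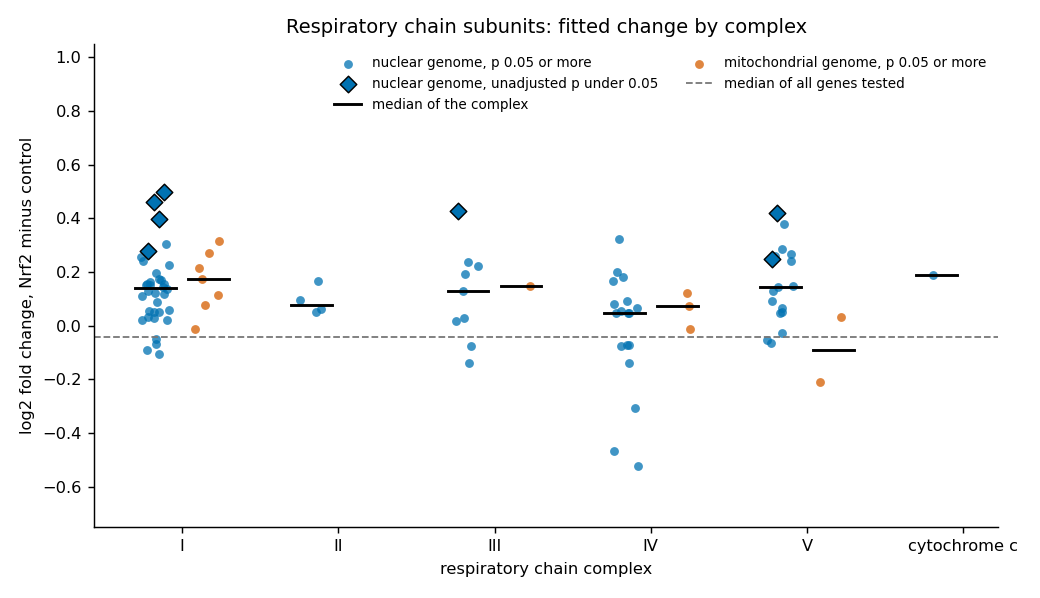
Fitted log2 fold change (Nrf2 minus control, y axis) of the 98 tested subunits by complex (x axis), with 1 point per gene, nuclear genes in blue and mitochondrial genes in orange, black bars for medians and a dashed line at the median of all genes tested. Diamonds mark the 7 genes with an unadjusted p under 0.05, which lie in complexes I, III and V, and the complex medians of nuclear genes run from 0.05 in complex IV to 0.15 in complex V.

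Complex I, the NADH dehydrogenase, was the largest set, with 36 nuclear members, a median log2 fold change of 0.14 and 32 positive values. Of its catalytic core, 2 subunits are given here. Ndufs1, which carries iron-sulfur clusters, lay between 100.3 and 127 CPM with a median of 106 in Nrf2 libraries and between 91.5 and 129 CPM with a median of 118 in control libraries (log2 fold change -0.05, SE 0.10, adjusted p = 0.827). Ndufv1, the subunit that binds NADH and FMN, had medians of 145 CPM in Nrf2 and 149 CPM in control libraries (log2 fold change -0.09, 95% interval -0.33 to 0.14). For these core genes the groups overlapped almost wholly, and the intervals leave room for changes of less than 1.41-fold only.

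The smallest adjusted p of any member was that of Ndufa7, a supernumerary subunit of complex I on chromosome 17 (33824572 to 33838317, GRCm38). It measured 60.8 CPM at the lowest, 89.7 at the median and 115 at the highest in Nrf2 libraries, and 51.0, 65.4 and 72.5 CPM in control libraries. The Nrf2 eye was higher in all 7 mice, yet Nrf2 2 and Nrf2 4 lay inside the control range. The log2 fold change was 0.46 (SE 0.13, 95% interval 0.16 to 0.76) and the adjusted p 0.105, while Ndufa7 was called by DESeq2 (adjusted p = 0.0223), without the mouse term (adjusted p = 0.0479) and without mouse 4 (adjusted p = 0.04). Ndufab1, the mitochondrial acyl carrier protein, had its higher level in the Nrf2 eye of all 7 mice too, with 94.98, 113 and 131 CPM at the lowest, median and highest Nrf2 library and 78.3, 94.4 and 103 CPM in control libraries (log2 fold change 0.28, SE 0.09, adjusted p = 0.169, and 0.0465 by DESeq2). Ndufab1, Ndufa1, Ndufb4 and Atp5f1 are named outside the rule for named genes, because they complete the 7 with an unadjusted p under 0.05. Ndufa1 had a log2 fold change of 0.40 (adjusted p = 0.222, SE 0.15) and Ndufb4 of 0.50 (adjusted p = 0.179, SE 0.17). Ndufb4 is uncertain, since the processed pseudogene Ndufb4c was given 76.8 CPM on average against 26.7 CPM for Ndufb4 itself and had a log2 fold change of 0.55 (adjusted p = 0.101), so that reads may have been divided between near-identical copies.

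Promoter letters of the nuclear members were read from RefSeq windows (GRCm38.p6) of 250 bases before to 50 after each transcript start, which matched 70 of the 87 genes, 2 of them by an older symbol. The antioxidant response element core TGACNNNGC, on either strand, was present in the windows of 9 members (12.9%) and of 13.99% of all 27025 genes in the table. The palindromic motif of NRF1, the nuclear respiratory factor, was present in 5 members (7.14%) and in 1.07% of all genes. Of the protein-coding genes tested, 78.4% had a window, and of these 16.52% held the element core and 2.02% the NRF1 motif. Both motifs can overlap other elements, and a match of letters is a description of the window alone. Stretches around such matches are shown for the 2 members that had an unadjusted p under 0.05 and the element core, for a member with the NRF1 motif, and for Gclm, an Nrf2 target that encodes the modifier subunit of glutamate-cysteine ligase. Capitals mark the motif, 5′ to 3′ on the strand of the gene.
Ndufa7 (chr17:33824514-33824562, plus strand): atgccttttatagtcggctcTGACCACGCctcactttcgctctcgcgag
Ndufa1 (chrX:37191315-37191363, minus strand): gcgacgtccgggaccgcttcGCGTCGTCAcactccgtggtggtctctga
Cox6a1 (chr5:115349091-115349140, minus strand): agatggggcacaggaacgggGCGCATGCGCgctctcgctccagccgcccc
Gclm (chr3:122245403-122245451, plus strand): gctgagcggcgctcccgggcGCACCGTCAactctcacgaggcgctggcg
The 9 members with the element core had a median log2 fold change of 0.15 (0.02 to 0.46) and the 60 tested members without it one of 0.13 (-0.31 to 0.50). The 5 members with the NRF1 motif, Atp5g2, Atp5k, Cox6a1, Ndufa11 and Uqcrc1, had a median of 0.05 (-0.08 to 0.38). Gclm, with the same element core as Ndufa7 and Ndufa1, had a log2 fold change of 2.99 (adjusted p = 0.00936, SE 0.34).

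Complex II, the succinate dehydrogenase, is made of 4 nuclear subunits and is also an enzyme of the tricarboxylic acid cycle. All 4 log2 fold changes were small and positive, with a median of 0.08. Sdha, the flavoprotein, had 340 CPM at the lowest, 349 at the median and 376 at the highest in Nrf2 libraries and 250.5, 355 and 380 CPM in control libraries (log2 fold change 0.06, 95% interval -0.17 to 0.29). The low control value was that of mouse 6. Sdhb, the iron-sulfur subunit, had a log2 fold change of 0.05 (adjusted p = 0.802, SE 0.09). The membrane anchors Sdhc and Sdhd had log2 fold changes of 0.16 (adjusted p = 0.454, SE 0.11) and 0.10 (adjusted p = 0.699, SE 0.12).

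Complex III, the cytochrome bc1 complex, had 9 nuclear members with a median log2 fold change of 0.13. Uqcrq, a small supernumerary subunit, had 121 CPM at the lowest, 178 at the median and 220 at the highest in Nrf2 libraries and 109, 132 and 139 CPM in control libraries. The Nrf2 eye was higher in 5 of 7 mice, with a log2 fold change of 0.43 (adjusted p = 0.173, SE 0.15). Uqcrfs1, the Rieske iron-sulfur protein, had a log2 fold change of 0.19 (adjusted p = 0.304, SE 0.09), and Cyc1, cytochrome c1, one of -0.14 (adjusted p = 0.595, SE 0.13). The core proteins Uqcrc1 and Uqcrc2 had log2 fold changes of -0.08 (95% interval -0.32 to 0.17) and 0.02 (95% interval -0.16 to 0.19). Cycs, the mobile cytochrome c on chromosome 6, measured 76.9 to 91.9 CPM in Nrf2 and 58.1 to 86.6 CPM in control libraries, was higher in the Nrf2 eye of 5 of 7 mice and had a log2 fold change of 0.19 (adjusted p = 0.399, SE 0.11).

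Complex IV, cytochrome c oxidase, had 18 tested nuclear members, with the lowest median of the complexes among nuclear genes, 0.05, and 7 negative values. Cox4i1, the ubiquitous form of subunit 4, had 366 CPM at the lowest, 530 at the median and 594 at the highest in Nrf2 libraries and 397, 520 and 565 CPM in control libraries (log2 fold change 0.06, 95% interval -0.26 to 0.37). The lowest Nrf2 value was that of Nrf2 2. Ndufa4, first purified with complex I and later assigned to complex IV, varied widely between mice, from 374 to 637 CPM in Nrf2 and from 335 to 812 CPM in control libraries (log2 fold change -0.07, SE 0.20, adjusted p = 0.886).

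Several complex IV subunits exist in a ubiquitous form and in a form restricted to certain tissues, and in these libraries the ubiquitous form was far more abundant in every pair but that of subunit 8. Over the 14 libraries, Cox4i2, the lung form of subunit 4, lay between 0.616 and 5.95 CPM, and Ndufa4l2, a hypoxia-inducible relative of Ndufa4, between 0.286 and 3.50 CPM. Cox6a2 and Cox7a1, the heart and muscle forms of subunits 6A and 7A, lay between 0.176 and 4.89 and between 2.73 and 6.03 CPM. Cox6b2, the testis form of subunit 6B, reached 10.2 to 38.2 CPM, or 0.10 ± 0.02 (SD, n = 7) of Cox6b1 in Nrf2 and 0.10 ± 0.03 in control libraries. The testis forms Cox7b2 and Cox8c stayed below 1 CPM everywhere.

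Cox8b, the muscle form of subunit 8, was expressed at a level close to that of the ubiquitous Cox8a. Per kilobase of transcript, the mean level of Cox8b was 879 CPM in control libraries, where that of Cox8a was 766 CPM. In Nrf2 libraries it was 712 CPM, where that of Cox8a was 971 CPM. The order of the group means turned on this scale alone, which rests on transcript lengths of 360 bases for Cox8b and 550 for Cox8a. In CPM, Cox8a was the higher of the pair in all 14 libraries. Cox8b measured 140 CPM at the lowest, 285 at the median and 323 at the highest in Nrf2 libraries and 231, 330 and 426 CPM in control libraries. Cox8a measured 384, 519 and 660 CPM in Nrf2 and 352, 429 and 488 CPM in control libraries. Neither gene passed the test, with log2 fold changes of -0.31 (adjusted p = 0.497, SE 0.22) for Cox8b and 0.32 (adjusted p = 0.285, SE 0.15) for Cox8a. Without mouse 2, whose ratio changed most, the value of Cox8b was -0.10. The ratio of Cox8b to Cox8a was 0.49 ± 0.15 (SD, n = 7) in Nrf2 and 0.75 ± 0.13 in control libraries, lower in the Nrf2 eye of 6 of 7 mice. This ratio was picked from the data and has no test. The 16 skeletal muscle markers summed to 28.4 to 445 CPM in Nrf2 and 32.7 to 480 CPM in control libraries, all 16 passed the filter and 0 were called. The part of muscle RNA in the Cox8b values was not tested.

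**Figure D2:**
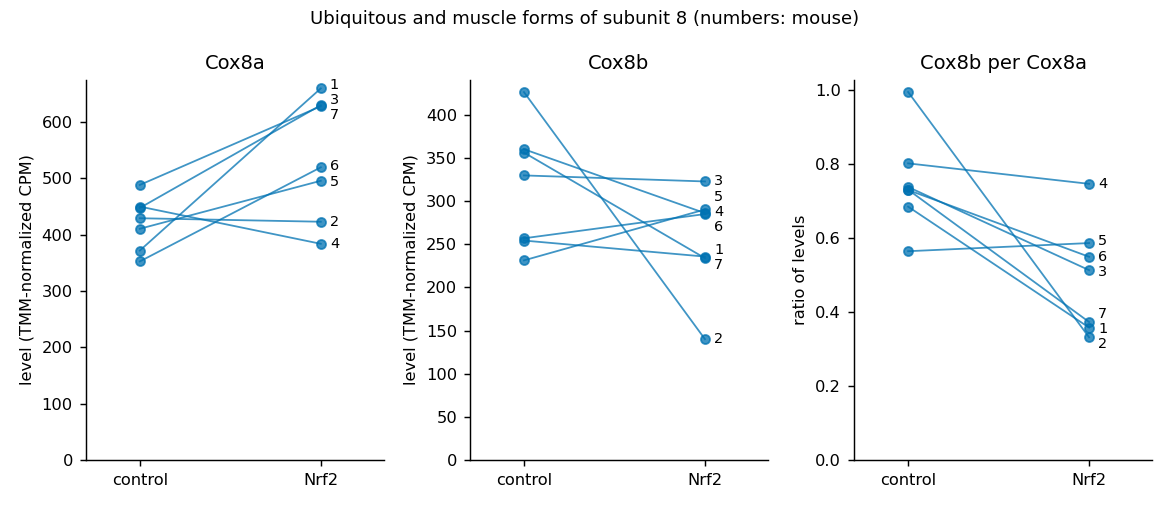
Levels of Cox8a (left) and Cox8b (middle) in TMM-normalized CPM and their ratio (right) in the control and the Nrf2 eye of each mouse, with lines joining the eyes of a mouse and numbers giving the mouse. The ratio of Cox8b to Cox8a is lower in the Nrf2 eye of 6 mice and slightly higher in mouse 5.

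Complex V, the ATP synthase, had 17 nuclear members with a median log2 fold change of 0.15 and 14 positive values. The beta and alpha subunits come first. Atp5b, the beta subunit, had 1190 CPM at the lowest, 1511 at the median and 1691 at the highest in Nrf2 libraries and 1352, 1534 and 1731 CPM in control libraries (log2 fold change -0.07, 95% interval -0.37 to 0.23). Atp5a1, the alpha subunit, had medians of 974 and 974 CPM (log2 fold change -0.03, 95% interval -0.31 to 0.25). Both members with an unadjusted p under 0.05 belong to the peripheral stalk. Atp5h, subunit d on chromosome 11, measured 257, 330 and 421 CPM at the lowest, median and highest Nrf2 library and 228, 256 and 273 CPM in control libraries. The Nrf2 eye had the higher level in 6 of 7 mice, the Nrf2 eyes of mice 2 and 4 lay inside the control range, and the log2 fold change was 0.42 (SE 0.13, 95% interval 0.13 to 0.71, adjusted p = 0.134). It was called by DESeq2 (adjusted p = 0.0236) and without the mouse term (adjusted p = 0.041). Atp5f1, subunit b, had a log2 fold change of 0.25 (adjusted p = 0.260, SE 0.11).

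The proton-translocating ring of complex V is built from subunit c, which 3 genes encode with different targeting peptides and the same mature protein. Atp5g3 was the most abundant of them at 497 CPM per kilobase, against 54.4 for Atp5g1 and 35.3 for Atp5g2. These values use the longest annotated transcript, of 723 bases for Atp5g3, 4715 for Atp5g1 and 753 for Atp5g2. Without division by length the means were 359, 257 and 26.6 CPM, so the distance of Atp5g1 from Atp5g3 depends on the length used. Their log2 fold changes were 0.05 (adjusted p = 0.854, SE 0.12) for Atp5g3, 0.27 (adjusted p = 0.279, SE 0.12) for Atp5g1 and 0.38 (adjusted p = 0.280, SE 0.17) for Atp5g2. The form with the highest level on both scales, Atp5g3, thus had the smallest log2 fold change of the 3.

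**Figure D3:**
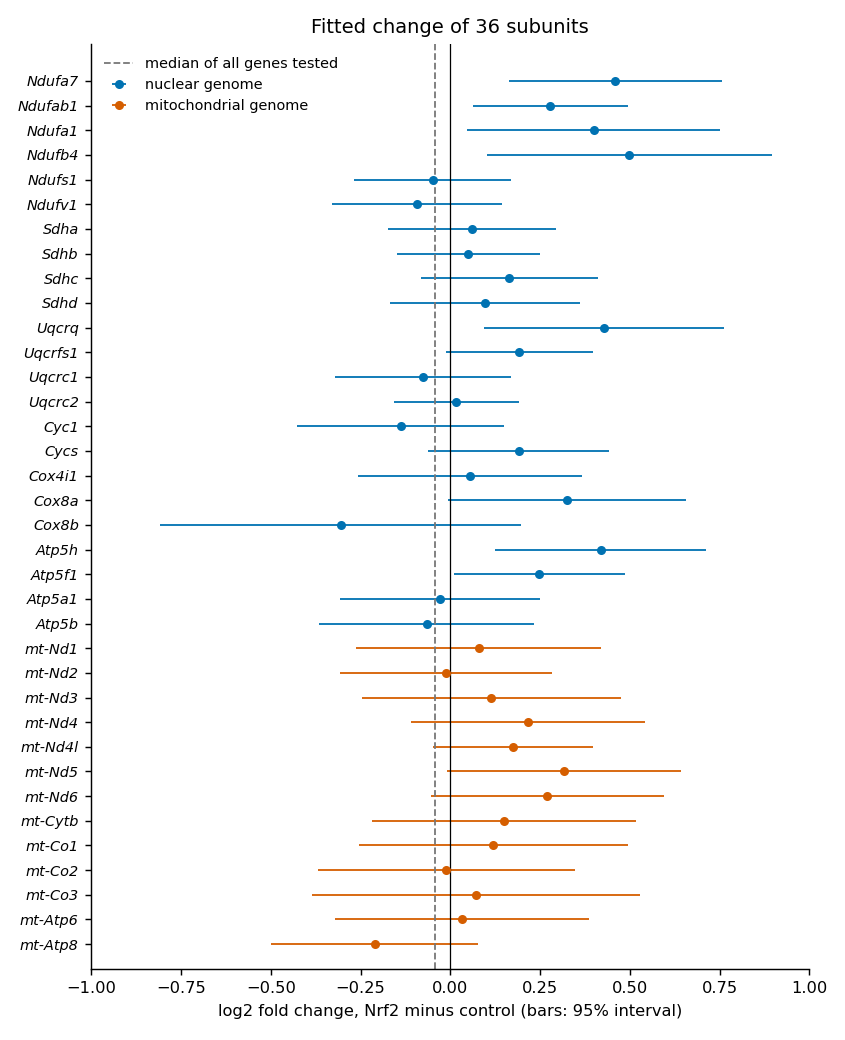
Log2 fold change (x axis, Nrf2 minus control) with 95% intervals for 23 nuclear subunits (blue) and the 13 mitochondrial genes (orange), with a solid line at 0 and a dashed line at the median of all genes tested. The intervals of Ndufa7, Ndufab1, Ndufa1, Ndufb4, Uqcrq, Atp5h and Atp5f1 lie above 0, and those of the other genes shown include 0.

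The mitochondrial genome encodes 7 subunits of complex I, 1 of complex III, 3 of complex IV and 2 of complex V. These genes are cut from long transcripts of both strands, so they share their source. Their levels per kilobase ran from 229 CPM for mt-Nd4l to 5021 CPM for mt-Co3, and mt-Atp6, mt-Co2 and mt-Cytb followed mt-Co3 at 3062, 2691 and 2179 CPM per kilobase. The complex I genes on this genome sat lower than those of complexes III and IV, apart from mt-Nd1 at 1754 CPM per kilobase, which was above mt-Co1 at 1550. The median over the 13 genes was 862 CPM per kilobase, against 144 over the 85 tested nuclear members.

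None of the mitochondrial genes passed the test, and the smallest adjusted p among them was 0.287. It was that of mt-Nd5, which measured 913 CPM at the lowest, 1197 at the median and 1639 at the highest in Nrf2 libraries and 761, 994 and 1123 CPM in control libraries. The Nrf2 eye was higher in 6 of 7 mice, with a log2 fold change of 0.32 (SE 0.14, 95% interval -0.01 to 0.64). The other genes of complex I had log2 fold changes of 0.08 (mt-Nd1), -0.01 (mt-Nd2), 0.11 (mt-Nd3), 0.22 (mt-Nd4), 0.17 (mt-Nd4l) and 0.27 (mt-Nd6), with adjusted p from 0.358 to 0.973. In complex III, mt-Cytb had 0.15 (adjusted p = 0.662, SE 0.16). In complex IV, mt-Co1, mt-Co2 and mt-Co3 had 0.12, -0.01 and 0.07, with SE of 0.16, 0.16 and 0.20. In complex V, mt-Atp6 had 0.03 (adjusted p = 0.940, SE 0.16) and mt-Atp8 -0.21 (adjusted p = 0.417, SE 0.13), lower in 5 of 7 mice.

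Some of these genes overlap and share reads. mt-Atp8 and mt-Atp6 have 43 bases in common (M, 7927 to 7969), and mt-Nd4l and mt-Nd4 have 7. mt-Nd6 lies on the other strand and shares 14 bases with mt-Nd5. No use of strand in the counting is stated, so mt-Nd6 transcripts cannot be told apart from reads antisense to them. The ratio of mt-Nd6 to mt-Nd5 was 0.38 ± 0.04 (SD, n = 7) in Nrf2 and 0.39 ± 0.02 in control libraries and was higher in the Nrf2 eye of 4 of 7 mice.

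Nuclear and mitochondrial transcripts were then compared within each mouse. The 87 nuclear members summed to 15730 ± 1811 CPM (SD, n = 7) in Nrf2 and 14810 ± 1132 CPM in control libraries, and the 13 mitochondrial genes to 18490 ± 2687 and 17170 ± 2113 CPM. The group means differed by less than 1 SD in both sets. In shares of all counts, nuclear members took 1.49% and 1.55% and mitochondrial genes 1.76% and 1.80% of Nrf2 and control libraries, so that the order of the group means turned when TMM scaling was left out. The ratio of the mitochondrial to the nuclear sum, which no scaling of a library can move, was 1.19 ± 0.24 in Nrf2 and 1.16 ± 0.11 in control libraries, higher in the Nrf2 eye of 4 mice and lower in 3.

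**Figure D4:**
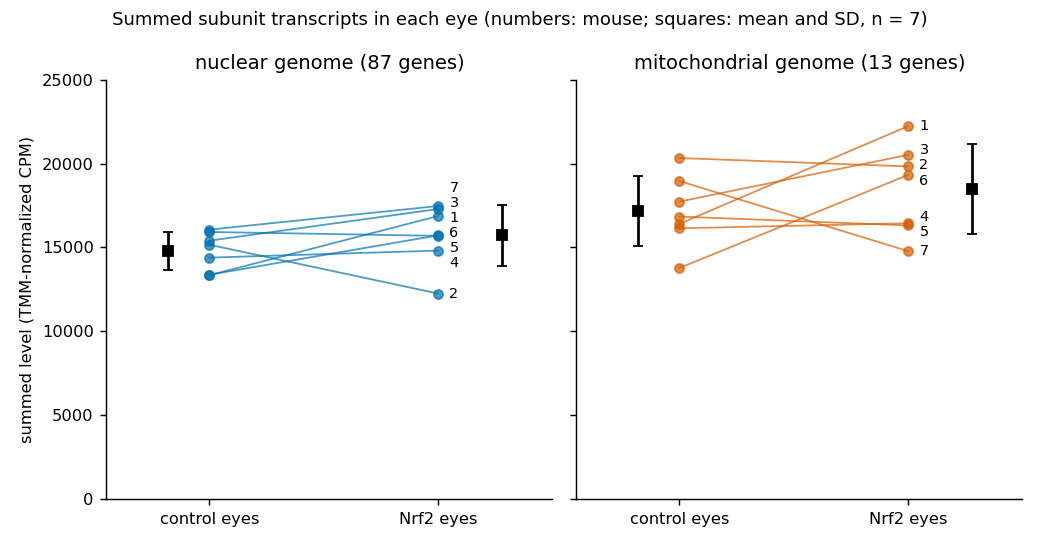
Summed TMM-normalized CPM (y axis) of the 87 nuclear members (left) and the 13 mitochondrial genes (right) in control and Nrf2 eyes, with lines joining the eyes of a mouse, numbers giving the mouse and squares with bars giving the mean and SD of 7 libraries. The nuclear sum is higher in the Nrf2 eye of 5 mice and the mitochondrial sum in that of 4, and the groups overlap in both.

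The mice differed more from each other than the group means did. The median log2 ratio of Nrf2 to control eye over the 85 tested nuclear members was 0.42, -0.27, 0.22, 0.04, -0.02, 0.31 and 0.19 in mice 1 to 7. Over the 13 mitochondrial genes it was 0.44, -0.11, 0.23, 0.01, -0.04, 0.50 and -0.29. All 13 mitochondrial genes were higher in the Nrf2 eye of mice 1 and 3, together with 74 and 73 of the 85 nuclear members. In mouse 2, whose Nrf2 library is the shallow one with many pseudogene counts, 9 nuclear members were higher, and in mouse 5 there were 40. In mouse 7, 69 nuclear members were higher in the Nrf2 eye, and 1 mitochondrial gene was. TMM scaling shifts both sets of a library alike: the log2 ratios of the nuclear and the mitochondrial sum had the same sign in 6 of 7 mice on the TMM scale and in 3 as shares of counts. The mitochondrial sum relative to the nuclear sum, free of scaling, had log2 ratios of 0.10, 0.27, 0.04, -0.02, -0.03, 0.26 and -0.48 in mice 1 to 7. The medians over all genes tested lay between -0.07 and 0.07 in every mouse.

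**Figure D5:**
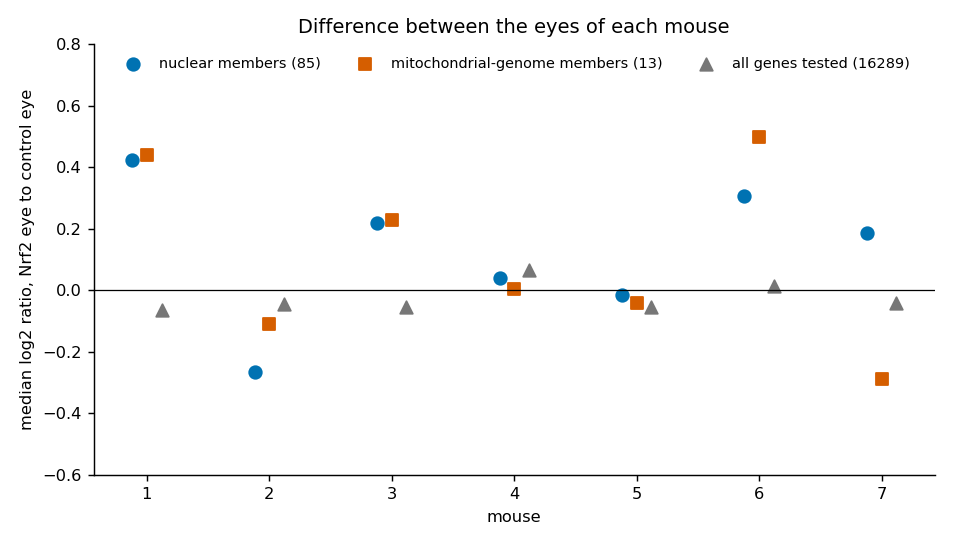
Median log2 ratio of the Nrf2 eye to the control eye (y axis) in each mouse (x axis) over the 85 tested nuclear members (circles), the 13 mitochondrial genes (squares) and all 16289 genes tested (triangles). On this TMM scale, nuclear and mitochondrial medians have the same sign in 6 mice and opposite signs in mouse 7, at 0.19 and -0.29.

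RPE markers moved between the eyes of a mouse too. The log2 ratio of their summed level was 0.53, -0.23, 0.44, -0.36, 0.34, 0.66 and -0.57 in mice 1 to 7, beside log2 ratios of the mitochondrial sum of 0.44, -0.04, 0.21, 0.03, -0.05, 0.49 and -0.36 and of the nuclear sum of 0.34, -0.31, 0.17, 0.04, -0.02, 0.23 and 0.12. The RPE and the mitochondrial ratio were both positive in mice 1, 3 and 6, both negative in mice 2 and 7, and of opposite sign in mice 4 and 5. The RPE signs of mice 1, 3 and 5 rest on a single marker, Ttr. It rose there from 2305 to 15630, from 4116 to 16430 and from 1135 to 8806 CPM, more than the whole sum did. The part of RPE content in the mitochondrial values was not tested. Without mice 3 and 4 the test called 0 members, with a smallest adjusted p of 0.122 and medians of 0.11 for nuclear and 0.08 for mitochondrial members.

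Genes that build or supply the respiratory chain were counted in the same fit, where 3.43% of all genes tested were called. The counts of the lists below are to be read beside that share, and no list was tested as a set. Of 50 assembly factors, 1 was called, higher: Coa5, which takes part in the assembly of complex IV, had 88.2, 99.9 and 143 CPM at the lowest, median and highest Nrf2 library and 61.9, 71.1 and 88.9 CPM in control libraries (log2 fold change 0.58, SE 0.10, adjusted p = 0.0191). The Nrf2 eye was higher in all 7 mice, and only the lowest Nrf2 library fell within the control range. Of 29 genes of mitochondrial protein import, 1 was called, higher: Timm17a, a channel subunit of the inner membrane translocase, had 85.0, 101 and 125 CPM in Nrf2 and 66.8, 75.6 and 81.3 CPM in control libraries (log2 fold change 0.47, SE 0.10, adjusted p = 0.0411). Its groups did not overlap, as was the case for 1.6% of all genes tested. The call of Coa5 was lost without mouse 1, 5 or 7 and without TMM factors, and that of Timm17a under 10 of 15 alternatives, with adjusted p up to 0.0867 and 0.144.

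Genes that copy, transcribe and translate the mitochondrial genome were called in neither direction, with 0 of 32 in mitochondrial DNA upkeep and transcription and 0 of 78 mitochondrial ribosomal proteins. Of these lists 6 and 11 genes had an unadjusted p under 0.05, beside 18.1% of all genes tested. Lrpprc, which stabilizes mitochondrial mRNAs, had a log2 fold change of -0.40 (adjusted p = 0.169, SE 0.14), and Tfb2m, a factor of mitochondrial transcription initiation, one of 0.41 (adjusted p = 0.173, SE 0.14). Mrpl13 and Mrps33, proteins of the mitochondrial ribosome, had log2 fold changes of 0.36 (adjusted p = 0.0841, SE 0.10) and 0.36 (adjusted p = 0.0894, SE 0.10) and were higher in all 7 Nrf2 eyes. The median log2 fold change was 0.00 over the upkeep genes and 0.10 over the ribosomal proteins.

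Of 20 regulators of mitochondrial biogenesis, 1 was called, higher, and 16 had negative values, with a median log2 fold change of -0.18. At an unadjusted p under 0.05 there were 3, 1 higher and 2 lower, beside 18.1% of all genes tested. The lowest log2 fold change of the list was -1.27, in a gene that was not called. Prkaa2, a catalytic subunit of the energy sensor AMPK, had 41.7, 76.3 and 119 CPM at the lowest, median and highest Nrf2 library and 32.4, 34.4 and 44.6 CPM in control libraries. All 7 Nrf2 eyes were above their control eye (log2 fold change 1.15, SE 0.16, adjusted p = 0.0110) and kept its call under all 15 alternatives.

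Among enzymes and carriers that feed the chain, 19 genes of the tricarboxylic acid cycle and of reactions that supply it were tested. Of these 1 was called, higher: Pcx, the pyruvate carboxylase, which replenishes oxaloacetate and is not a step of the cycle itself. Pcx had 169, 357 and 441 CPM in Nrf2 and 126, 152 and 207 CPM in control libraries (log2 fold change 1.00, SE 0.21, adjusted p = 0.0382). The other 18 were not called and had no unadjusted p under 0.05, and the median of the list was -0.07. Of 19 carriers and channels tested, 1 was called, higher: Slc25a1, the citrate carrier, had 99.3, 138 and 171 CPM in Nrf2 and 54.5, 86.4 and 109 CPM in control libraries (log2 fold change 0.76, SE 0.13, adjusted p = 0.0215). In all 7 mice both were higher on the Nrf2 side. The call of Pcx was lost under 8 of 15 alternatives and that of Slc25a1 under 5, with adjusted p up to 0.133 and 0.0887. Of 13 genes of coenzyme Q synthesis 0 were called and 3 had an unadjusted p under 0.05, beside 18.1% of all genes tested. Coq8a, a kinase-like protein of that pathway, was closest, with 17.7, 25.2 and 36.8 CPM in Nrf2 and 31.0, 36.4 and 51.8 CPM in control libraries (log2 fold change -0.59, SE 0.13, adjusted p = 0.0515), lower in the Nrf2 eye of all 7 mice. Pdss2, which makes the side chain of coenzyme Q, had a log2 fold change of 0.46 (adjusted p = 0.164, SE 0.16).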

How the data were processed

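RNA was measured in 14 RPE libraries from both eyes of 7 mice. Per the study's methods the retina was removed, RPE RNA was purified from the supernatant of the treated eyecup and amplified with an ultra-low-input kit, and reads were aligned to mm10 with Ensembl annotation and also quantified with Salmon (version 0.9.1 per the submitters' processing notes). The deposited table holds 1 estimated count (expected count, rounded to a whole number by the authors) for each gene and library, without normalization. That they come from Salmon is inferred. Such counts divide reads between near-identical copies, pseudogenes and nuclear copies of mitochondrial DNA by a model. The labels name 2 sequencing runs without saying which library was in which, so runs could not be compared. The labels give 7 pairs, the methods another number, and all pairs of the labels were used.

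Of 34452 mouse rows, 34401 matched GENCODE M21 (GRCm38), which gave symbols, positions and transcript lengths. Each length is that of the longest annotated transcript of the gene's own type. Differences were tested in edgeR 4.0.16 under R 4.3.3 by quasi-likelihood, in a model of mouse plus treatment with TMM scaling and filterByExpr (minimum count 10). Benjamini-Hochberg adjustment ran over 16289 genes. The human vector row was kept in scaling and left out of the adjustment. All p-values are two-sided and from this test unless another tool is named. CPM are TMM-normalized, except vector levels and shares, which use library totals. SE were derived from the F statistic, with 95% intervals on 6 residual and 2.68 prior degrees of freedom. A gene is called at an adjusted p under 0.05. On simulated counts for 16255 genes the test recovered 96% to 98% of genes changed by a log2 value of 1 in either direction. The simulation gave every gene the same dispersion and no differences between mice. Its shares therefore do not give the power of the test on the real counts.

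The pairs were taken from the numbers in the labels and from the study's design, in which both eyes of a mouse were compared. Deviations from the group means correlated between the eyes of a mouse at 0.00, 0.08, 0.03, -0.31, 0.30, -0.17 and 0.14 over 16289 genes. These values are of both signs, so the counts by themselves do not show the pairing.

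Members and gene lists were chosen with earlier results of these data known. Named genes are members called, the smallest adjusted p of each sign per complex, the mitochondrial genes, isoform partners, core subunits and, per related list, genes called or the 2 with the smallest adjusted p. Use of strand or molecular identifiers is not stated in the sources used here. A named gene is not reported here.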

Additional observations from a re-analysis of the deposited data

Results flagged for a closer look

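In 98 groups of 7 libraries, the 2 groups for each of 46 named members, of both summed levels and of their ratio, 6 values lay apart from the rest of their group by Dixon's criterion, where about 5 are expected by chance. Nrf2 2, the shallowest library, accounted for 4 of them: it was the lowest Nrf2 library for Ndufv1 (95.8 CPM), Cyc1 (122 CPM) and Cox4i1 (366 CPM) and the highest for Cox4i2 (2.49 CPM). Control 6 was the lowest control library for Sdha (250.5 CPM). Control 5 was the highest control library for Uqcrc2 (144 CPM).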

How the results depend on the processing

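The count of respiratory chain subunits called was 0 in the paired edgeR test. It was 2 without the block for mouse (no pairing term), where Atp5h (adjusted p = 0.041) and Ndufa7 (adjusted p = 0.0479) were called higher and 1100 genes were called in all (6.75%). It was 3 with DESeq2, which called Ndufa7 (adjusted p = 0.0223), Atp5h (adjusted p = 0.0236) and Ndufab1 (adjusted p = 0.0465) higher and 1943 genes in all (11.9%). With 1 mouse left out it ranged from 0 to 1, the 1 being Ndufa7 (adjusted p = 0.04) without mouse 4, where 1998 genes were called in all. The number with an unadjusted p under 0.05 ranged from 2 without mouse 1 to 25 without mouse 2. RLE scaling, scaling without mitochondrial genes or without the vector transcript, library totals, no filter and mice 3 and 4 left out all gave 0. The cause of these differences was not tested. With 1 mouse left out, the median log2 fold change ranged from 0.06 to 0.18 for nuclear and from 0.04 to 0.19 for mitochondrial members, and the mean log2 ratio of the summed level from 0.04 to 0.15 and from 0.04 to 0.18. Scaled to the counts of nuclear protein-coding genes, that mean was -0.04 for nuclear and -0.02 for mitochondrial members, and with library totals -0.05 and -0.03. Among 46 named members, 5 of 690 values under alternatives passed the threshold, and 47 changed sign without being called. Scaling without the vector and with library totals were added after seeing the data.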
